A study of Mus musculus with 6 samples.

Results

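Epithelial cells that turn mesenchymal lose their cell-to-cell junctions and gain a migratory cytoskeleton and matrix. Expression of 10 genes of this transition was examined in cultured mouse keratinocytes that lacked *Sox4*, *Sox11* or both. The genes were *Twist1*, *Twist2*, *Snai1*, *Snai2*, *Zeb1*, *Zeb2*, *Vim*, *Cdh2*, *Cdh1* and *Epcam*. Probes were found by matching their accessions to these symbols, which gave 12 probes, with 2 each for *Zeb2* and *Cdh2*. The arrays held 21368 named genes on 55681 probes. The choice was made with measured values in view, because *Twist2* was among the target genes the study listed and *Vim* stood apart in a pair of wild-type channels. The dcKO ratio of *Twist2* and the values of *Vim* on the *Sox4* cKO arrays are therefore given as a description, with no test.

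*Sox4* and *Sox11* encode SoxC transcription factors. The cells were primary keratinocytes, which make up most of the epidermis, from the back skin of newborn pups (strain given as 129SvEx:C57BL/6, crossed with *Krt14*-Cre mice on FVB/N). *Sox4* cKO, *Sox11* cKO and dcKO cells came from mice homozygous for floxed *Sox4*, floxed *Sox11* or both, with Cre driven by the *Krt14* promoter, which is active in basal keratinocytes. The floxed line had also carried a *Sox12* deletion, and its status in these cells is not given in the sources used here. The cells had been grown on J2 feeder fibroblasts and were then passaged off them. Each of 6 arrays compared knockout RNA with RNA of wild-type control keratinocytes, with 2 biological replicates for each of the 3 genotypes and the dyes swapped between them. Neither the labels nor the methods say whether arrays shared wild-type RNA, so p-values measure the spread between these arrays. All arrays lay on 1 slide.

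A value called a level below is the log2 signal of 1 channel after background correction and scaling between arrays, so that 1 unit is a doubling. A log2 ratio is knockout over wild type on the same array. A gene was called changed when its adjusted p from limma was below 0.05 and its log2 fold change exceeded 1.5 in either direction. Between 35.1 and 42.8% of probes were well above background in the knockout channels and between 37.3 and 45.0% in the wild-type channels. The deleted genes were low where the labels say so. By its brightest probe, *Sox4* differed by -2.52 in *Sox4* cKO and -2.52 in dcKO, with adjusted p of 0.004 and 0.00106, and *Sox11* differed by -2.98 in *Sox11* cKO and -3.43 in dcKO, with adjusted p of 0.0417 and 0.00664. All 6 keratinocyte markers listed (*Krt5*, *Krt14*, *Trp63*, *Itga6*, *Itgb4* and *Col17a1*) were well above background in all 12 channels. Of the markers listed for melanocytes, leukocytes and endothelium, *Mitf*, *Cd3e*, *Itgam*, *Pecam1* and *Kdr* were so in 12 channels. *Pmel* and *Mlana* were so in 11, *Tyr* in 8, and *Ptprc* and *Cd74* in 1 each. *Dct*, *Tyrp1*, *Sox10*, *Cd207*, *Tyrobp* and *Cdh5* were so in none. Detection by itself therefore does not identify the cell type.

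*Twist1* and *Twist2* are basic helix-loop-helix factors that bind E-boxes and can repress epithelial genes. *Snai1* and *Snai2* are zinc finger repressors, and *Zeb1* and *Zeb2* are zinc finger homeodomain repressors. The Snail and Zeb factors bind the CACCTG form of the E-box, a well-known example of which lies in the promoter of *Cdh1*, the gene for E-cadherin. *Vim* encodes the intermediate filament vimentin and *Cdh2* encodes N-cadherin, both classical mesenchymal markers, and *Epcam* encodes an epithelial adhesion molecule. In skin, *Snai2* is also expressed in basal keratinocytes and at wound edges.

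Promoters of 6 of the 10 genes were matched in RefSeq sequences of the GRCm38.p6 build, with 4 starts for *Zeb2*. Entries of a single chromosome had been left out of the match, so the unmatched genes need not lack an entry. Those of the 4 genes on which the results turn are printed because these genes moved or stood apart on the arrays. Each run is the 250 bases before the annotated start, 5′ to 3′ on the gene's strand. Capitals mark CACCTG, the SOX core ACAAT, or the reverse complement of either.
*Twist1*, chr12:33957421-33957670, + strand: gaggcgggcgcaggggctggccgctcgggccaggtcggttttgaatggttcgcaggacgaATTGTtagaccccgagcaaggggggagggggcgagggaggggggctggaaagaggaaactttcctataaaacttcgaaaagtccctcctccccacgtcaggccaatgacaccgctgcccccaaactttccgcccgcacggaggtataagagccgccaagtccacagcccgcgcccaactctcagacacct
*Twist2*, chr1:91801211-91801460, + strand: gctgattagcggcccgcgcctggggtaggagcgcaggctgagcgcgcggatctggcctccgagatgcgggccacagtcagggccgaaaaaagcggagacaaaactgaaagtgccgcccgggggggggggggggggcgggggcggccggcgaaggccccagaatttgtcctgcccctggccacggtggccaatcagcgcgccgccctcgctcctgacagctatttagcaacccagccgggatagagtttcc
*Vim*, chr2:13574061-13574310, + strand: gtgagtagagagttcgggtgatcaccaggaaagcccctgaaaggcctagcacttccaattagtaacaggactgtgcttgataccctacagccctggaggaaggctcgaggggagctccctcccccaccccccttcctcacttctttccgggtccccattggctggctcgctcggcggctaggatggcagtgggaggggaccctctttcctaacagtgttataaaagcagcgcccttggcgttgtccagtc
*Epcam*, chr17:87635729-87635978, + strand: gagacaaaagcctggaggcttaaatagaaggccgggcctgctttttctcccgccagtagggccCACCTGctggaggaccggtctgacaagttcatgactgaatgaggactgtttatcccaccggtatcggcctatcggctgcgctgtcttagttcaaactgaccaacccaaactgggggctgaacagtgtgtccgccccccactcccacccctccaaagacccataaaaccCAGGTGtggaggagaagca
The *Epcam* promoter held 2 CACCTG matches, at 187 and 19 bases before the start. The *Twist1* promoter held 1 ACAAT match, on the opposite strand, at 190 bases before the start. Those of *Twist2* and *Vim* held neither motif and no E-box of the general form CANNTG, which includes CACCTG. The *Snai1* promoter held 1 CACCTG at 126 bases before the start, and none of the 4 *Zeb2* promoters held any of the 3 motifs. Searched on both strands, CACCTG occurred in 17.2%, ACAAT in 27.7% and CANNTG in 66.2% of 32851 promoter windows of the same length. These are letter matches only. The study lists *Twist2* as bound by SOX11 and/or SOX4, from genome-wide chromatin immunoprecipitation in keratinocytes. It also lists the gene as changed in embryonic dcKO epidermis. A window of 250 bases does not test that binding.

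The 10 genes differed widely in signal. *Snai2*, *Cdh1*, *Cdh2* and *Epcam* were well above background in all 12 channels. *Twist2* was so in 8 of 12 channels, *Vim* in 4, *Snai1* in 2 and *Twist1* in 1. Both probes of *Zeb2* and the probe of *Zeb1* were not well above background in any channel, so that neither gene gives a ratio that can be read. The plot of levels by array shows both channels for all 10 genes.

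**Figure D1:**
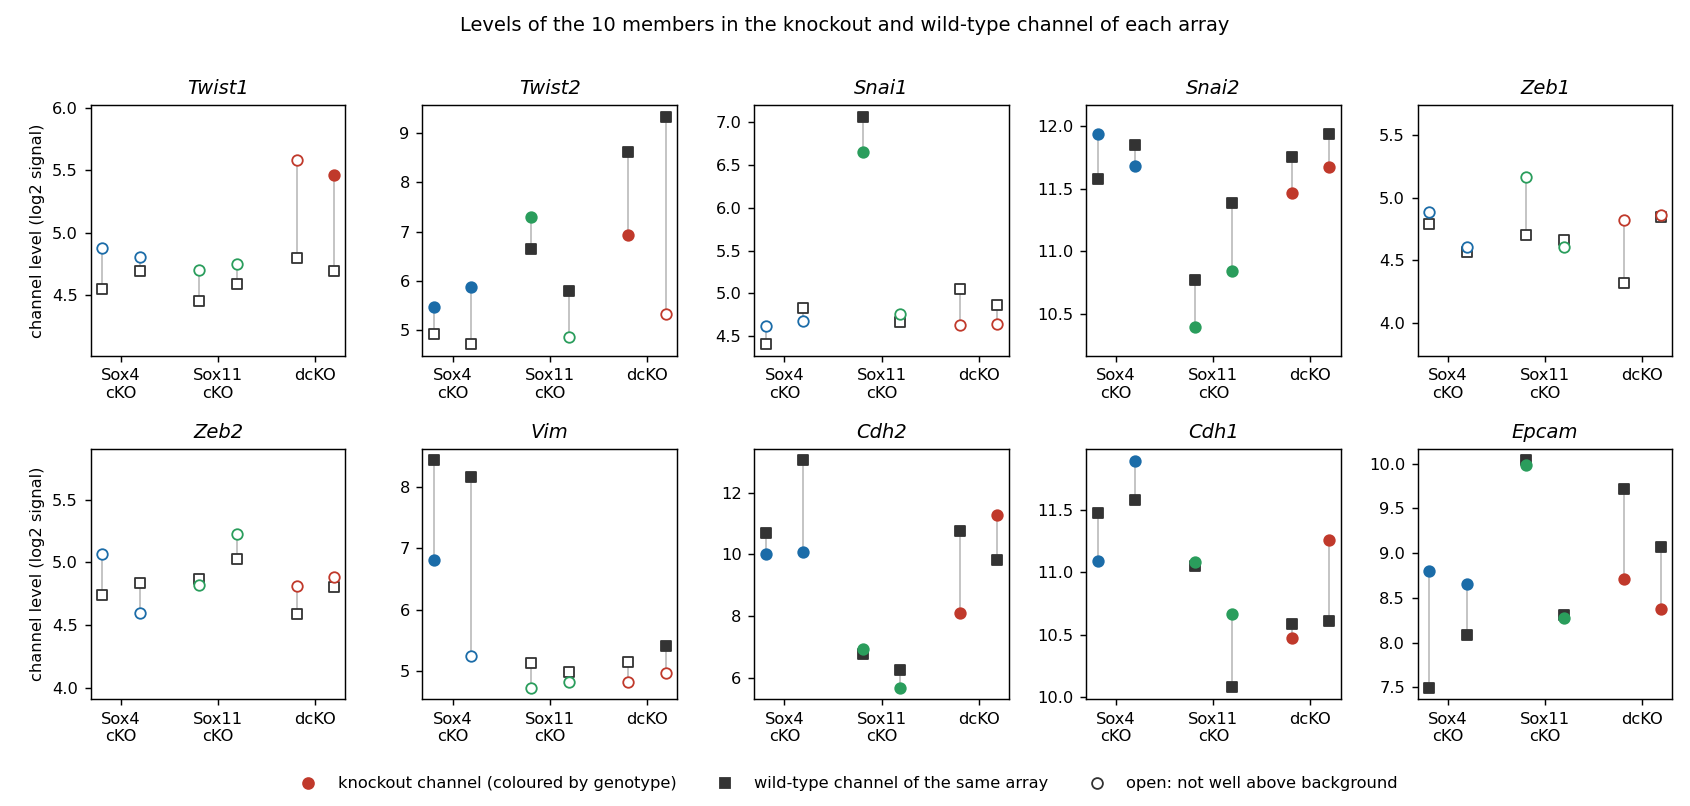
Levels of the 10 members on each array (y axis, log2 signal of 1 channel; each panel has its own axis), with the 2 arrays of each genotype side by side on the x axis. Circles are knockout channels, squares wild-type channels of the same array, joined by a line, and open symbols were not well above background; the wild-type channels of the dcKO arrays stand highest for *Twist2* (8.62 and 9.33), those of the *Sox4* cKO arrays highest for *Vim* (8.44 and 8.16), and both channels of the *Sox11* cKO arrays are lowest for *Cdh2*.

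Of the 10 members, 1 was past both thresholds in *Sox4* cKO, where 0.14% of all probes were, none in *Sox11* cKO, where 0.0862% of all probes were, and 1 in dcKO, where 0.756% of all probes were. The pair were *Vim* and *Twist2*, the genes chosen on those values, so that nothing is read from these counts. Among the tests that the choice did not use, 1 of 9 members in *Sox4* cKO, 1 of 10 in *Sox11* cKO and 2 of 9 in dcKO had an unadjusted p below 0.05, against 7.4, 6.84 and 13% of all probes. On the Sox4 cKO arrays the 2 knockout and the 2 wild-type levels of 5 members did not overlap, on the Sox11 cKO arrays those of 2 and on the dcKO arrays those of 7, against 29.2, 23 and 34.3% of all probes, and these counts include dim genes and the pair above. The plot of ratios on each array shows how far apart the replicates lay.

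**Figure D2:**
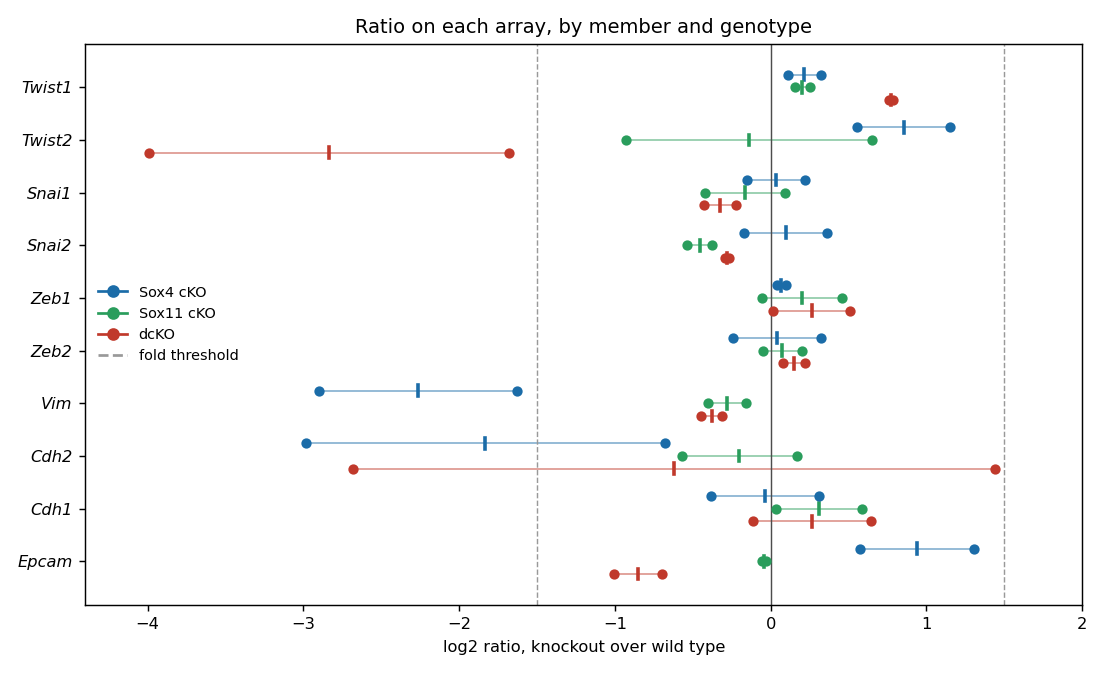
Log2 ratio of knockout over wild type (x axis) on each array for the 10 members (y axis). Points are the 2 arrays of a genotype, short bars their fitted mean, and dashed lines the fold threshold of 1.5 in either direction; *Twist2* in dcKO and *Vim* in *Sox4* cKO lie beyond it on both arrays, and the dcKO arrays of *Cdh2* lie on opposite sides of 0.

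*Twist1* was low everywhere. Its levels in dcKO cells were 5.59 and 5.46, while its wild-type levels on the same arrays were 4.80 and 4.70. In the other channels it lay between 4.45 and 4.88. The dcKO levels were therefore the highest of the 12 channels and did not overlap the rest. The log2 ratios were 0.79 and 0.76, with a mean of 0.77 (SE 0.14, SD 0.02, n = 2) and an adjusted p of 0.0454 from limma. This passed the p threshold but not the fold threshold, so that *Twist1* was not called. Only 1 of the 2 dcKO channels, and neither wild-type channel, was well above background. With the wild-type levels raised to the lowest signal well above background, the fold was 1.44. This is not a strict lower bound, because 1 dcKO channel was itself not well above background. The log2 ratios in the single knockouts were smaller, at 0.22 in *Sox4* cKO and 0.20 in *Sox11* cKO, both between channels not above background. The difference between dcKO and *Sox4* cKO was 0.56 (SE 0.20, adjusted p = 0.326) and that between dcKO and *Sox11* cKO was 0.57 (SE 0.20, adjusted p = 0.360).

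*Twist2* differed in the opposite direction from *Twist1* in dcKO cells. Its levels in dcKO cells were 6.94 and 5.34, the second not well above background. On the same arrays the wild-type levels were 8.62 and 9.33, higher than in any other channel. The log2 ratios were -1.68 and -3.99, a mean of -2.84 (SD 1.63, n = 2). The knockout channel was well above background on 1 of the 2 arrays, so the second ratio is against a background signal. Both arrays gave the same direction, but the ratios lay more than 2 log2 units apart. On the *Sox11* cKO arrays the knockout levels were 7.30 and 4.87 and the wild-type levels 6.65 and 5.80, which overlapped, and the log2 ratios of 0.65 and -0.93 had opposite signs (mean -0.14, adjusted p = 0.993). On the *Sox4* cKO arrays the knockout levels were 5.48 and 5.87, and the wild-type levels of 4.92 and 4.72 were not well above background. By mean signal on these arrays *Twist2* was at least 1.46-fold higher in *Sox4* cKO cells than in their own controls. The difference passed neither threshold (log2 ratios 0.56 and 1.15, adjusted p = 0.726). The bound reflects the background signal and not the spread between replicates.

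Ordered by mean level, *Twist2* was highest in the wild-type channels of the dcKO arrays (8.97 ± 0.50, SD, n = 2). The next were wild type on the *Sox11* cKO arrays (6.22 ± 0.60), dcKO cells (6.14 ± 1.13), *Sox11* cKO cells (6.08 ± 1.72) and *Sox4* cKO cells (5.68 ± 0.28), whose neighbours in this order differed by less than the larger of their SDs. Wild type on the *Sox4* cKO arrays was lowest (4.82 ± 0.15). Against the mean of the 4 wild-type channels of the other arrays, dcKO cells lay 0.62 higher and their own controls 3.45 higher, on the log2 scale, where 2 of those 4 wild-type levels were not well above background. The level of *Twist2* in dcKO cells was therefore inside the range of the other wild-type channels, from 4.72 to 6.65, on 1 array and above it on the other.

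*Snai1* was detected on a single array. On *Sox11* cKO replicate 1 it was well above background in both channels, at 6.65 in the knockout and 7.07 in wild type. In the other 10 channels it lay between 4.40 and 5.05, never well above background. The log2 ratio on that array was -0.42, so that the high level was shared by both genotypes on it. The mean log2 ratios were 0.03 in *Sox4* cKO, -0.16 in *Sox11* cKO and -0.32 in dcKO, with adjusted p of 0.986, 0.973 and 0.567.

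*Snai2* was measured in every channel and differed little between genotypes. Its levels were 11.94 and 11.68 in *Sox4* cKO cells against 11.58 and 11.85 in their controls. They were 10.40 and 10.85 in *Sox11* cKO cells against 10.77 and 11.38, and 11.46 and 11.67 in dcKO cells against 11.76 and 11.94. *Sox11* cKO cells had the lowest mean level, and their controls the next lowest. The log2 ratios in *Sox11* cKO were -0.38 and -0.54, with a mean of -0.46 (SE 0.16, adjusted p = 0.577). Those in dcKO were -0.29 and -0.27, with a mean of -0.28 (SE 0.16, adjusted p = 0.570), and in *Sox4* cKO the 2 arrays had opposite signs (mean 0.10, adjusted p = 0.941). None was past the threshold. With arrays centred on their median in place of loess, the dcKO difference of *Snai2* was -0.83 (adjusted p = 0.0363), in a setting where the median of the 17800 probes above background in all channels was itself -0.46.

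*Zeb1* lay between 4.32 and 5.16 over the 12 channels and the brighter *Zeb2* probe between 4.59 and 5.23, which is the level of the background. The second *Zeb2* probe lay between 4.41 and 4.95. A difference in either gene was not detectable at this signal.

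*Vim*, the gene for vimentin, was detected almost only on the *Sox4* cKO arrays. Wild-type levels there were 8.44 and 8.16, and *Sox4* cKO levels were 6.81 and 5.26, the second not well above background. The log2 ratios were -1.63 and -2.90, a mean of -2.27 (SD 0.90, n = 2), where the second ratio is against a background signal. The other 4 wild-type levels lay between 4.98 and 5.41, and 1 of them, on dcKO replicate 2, was well above background. The controls of the *Sox4* cKO arrays thus lay 3.13 above the mean of the other controls on the log2 scale, and the *Sox4* cKO cells themselves lay 0.86 above it. On the *Sox11* cKO arrays the knockout levels were 4.73 and 4.83 and the wild-type levels 5.13 and 4.98, none well above background. On the dcKO arrays the knockout levels of 4.83 and 4.97 were not well above background and the wild-type levels were 5.15 and 5.41 (mean log2 ratio -0.38, adjusted p = 0.648). With the knockout levels raised to the lowest signal well above background, wild type was 1.05-fold higher. This is no strict bound, since only 1 of the 2 wild-type channels was well above background.

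Fibroblasts, the cell type of the feeder layer, express vimentin strongly. In the wild-type channels of the *Sox4* cKO arrays, 2 and 1 of 11 fibroblast markers were well above background and the log2 of their summed signal was 9.58 and 9.0. In the other 4 wild-type channels 2 of 11 were, and the summed signal was between 9.76 and 10.43. *Col1a1*, *Col3a1*, *Pdgfrb*, *Lum*, *Thy1*, *Fap* and *Dpt* were not well above background in any of the 12 channels. *Fbln1* was so in 12, *Col1a2* in 11, and *Pdgfra* and *Dcn* in 1 each. The part of such cells in the *Vim* levels was not tested. In such cultures fewer cells of one type and less RNA per cell cannot be told apart.

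*Cdh2*, the gene for N-cadherin, varied most between controls. Its levels in *Sox4* cKO cells were 10.01 and 10.08, against 10.68 and 13.06 in wild type. On the *Sox11* cKO arrays all 4 channels were low, with 6.93 and 5.68 in the knockout and 6.77 and 6.25 in wild type. On the dcKO arrays the knockout levels were 8.09 and 11.27 and the wild-type levels 10.77 and 9.83, so that the order turned between replicates. The log2 ratios were -0.68 and -2.99 in *Sox4* cKO (mean -1.83, SE 0.88, adjusted p = 0.717), 0.17 and -0.57 in *Sox11* cKO (mean -0.20, SE 0.88, adjusted p = 0.995), and -2.68 and 1.44 in dcKO (mean -0.62, SE 0.88, adjusted p = 0.876). None was called. The second *Cdh2* probe gave -0.41 and -3.18, 0.40 and -0.58, and -2.51 and 1.23, with the same sign as the first on every array. The wild-type levels spanned 6.81 log2 units, a 112-fold range. Of 19058 probes above background in all 6 wild-type channels, 0.0892% had a range as wide, and the median range was 0.83.

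*Cdh1*, the gene for E-cadherin and the classical target of the factors above, was measured in every channel on a probe spotted 10 times. Its levels were 11.09 and 11.89 in *Sox4* cKO cells against 11.48 and 11.58 in wild type, 11.08 and 10.67 in *Sox11* cKO cells against 11.05 and 10.08, and 10.48 and 11.25 in dcKO cells against 10.59 and 10.61. The groups overlapped on all 3 pairs of arrays. The mean log2 ratios were -0.04 (SE 0.14, adjusted p = 0.980), 0.31 (SE 0.14, adjusted p = 0.771) and 0.27 (SE 0.14, adjusted p = 0.537). The dcKO value turned to -0.29 (adjusted p = 0.372) when arrays were centred on their median instead of by loess. *Cdh1* was 0.94 higher in the controls of the *Sox4* cKO arrays than in the other controls.

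*Epcam* was well above background in every channel. *Sox4* cKO levels were 8.80 and 8.65 against 7.50 and 8.08 in wild type, higher on both arrays. *Sox11* cKO levels of 9.98 and 8.28 were close to wild-type levels of 10.04 and 8.31. The dcKO levels were 8.72 and 8.37 against 9.72 and 9.07, lower on both arrays. The log2 ratios were 1.31 and 0.57 in *Sox4* cKO (mean 0.94, SE 0.20, adjusted p = 0.258), -0.06 and -0.03 in *Sox11* cKO (mean -0.05, SE 0.20, adjusted p = 0.995), and -1.0 and -0.70 in dcKO (mean -0.85, SE 0.20, adjusted p = 0.0914). None of these was called by itself. The difference between dcKO and *Sox4* cKO was -1.79 (SE 0.28) with an adjusted p of 0.0477 from limma, past both thresholds, as were 0.562% of all probes. *Twist2* and *Vim* were not tested in this difference, and no other member was called in it. No member was called in the difference between dcKO and *Sox11* cKO, where 0.449% of all probes were and 2 of 9 members had an unadjusted p below 0.05, against 10.3% of all probes; that of *Epcam* was -0.81 (SE 0.28, adjusted p = 0.351).

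The *Epcam* difference came with a difference between the controls. The mean knockout levels were 8.73 in *Sox4* cKO and 8.54 in dcKO cells, while the means of their controls were 7.79 and 9.40. When all 6 wild-type channels were taken as 1 group, an alternative chosen after seeing the data, the difference was -1.19 (SE 0.57, adjusted p = 0.376). The call was also lost without any 1 of the 4 arrays it rests on (-1.34 to -2.24, adjusted p from 0.0913 to 0.361), without the dye term (adjusted p = 0.0789) and with an offset of 50 (-1.65, adjusted p = 0.125). On *Epcam* itself, centring on the median gave -1.36 in dcKO (adjusted p = 0.0113), still under the fold threshold.

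The controls of one genotype's arrays could lie apart from the other controls. In both wild-type channels of the *Sox4* cKO arrays, *Vim* and *Cdh1* lay above all 4 other wild-type levels, and *Twist2* and *Epcam* below them. In those of the *Sox11* cKO arrays, *Zeb2* lay above, and *Snai2*, *Vim* and *Cdh2* below. In those of the dcKO arrays, *Twist1* and *Twist2* lay above. These were 4, 4 and 2 of the 10 members, against 15.4, 13.7 and 14.9% of all probes, and *Vim* was in part chosen on this. The wild-type levels of *Twist1* and *Zeb2* were never well above background. Nor were those of *Twist2* on the *Sox4* cKO arrays or of *Vim* on the *Sox11* cKO arrays. The latter, 5.133 and 4.981, lay just under the lowest other *Vim* level of 5.145. With no scaling between arrays the counts were 2 for *Sox11* cKO and 1 for dcKO. Without *Sox11* cKO replicate 2 the count for *Sox11* cKO was 7, and without *Sox11* cKO replicate 1 or either dcKO array that for dcKO was 4. With fewer levels the rule is easier to meet, and the share of all probes was not computed without an array. These counts therefore cannot be set against the shares above. Among the members above background in all 6 wild-type channels, *Epcam* had the next widest range after *Cdh2* (2.54), and 3.52% of the probes above had ranges as wide. *Snai2* (1.17) and *Cdh1* (1.49) were nearer the median. The ranges of *Twist2* (4.61), *Vim* (3.46) and *Snai1* (2.66) run down to background signals, with 4, 3 and 1 of the 6 channels above background. Which channel of an array stands apart from the other controls can be read from the plot of both channels against the other wild-type channels.

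**Figure D3:**
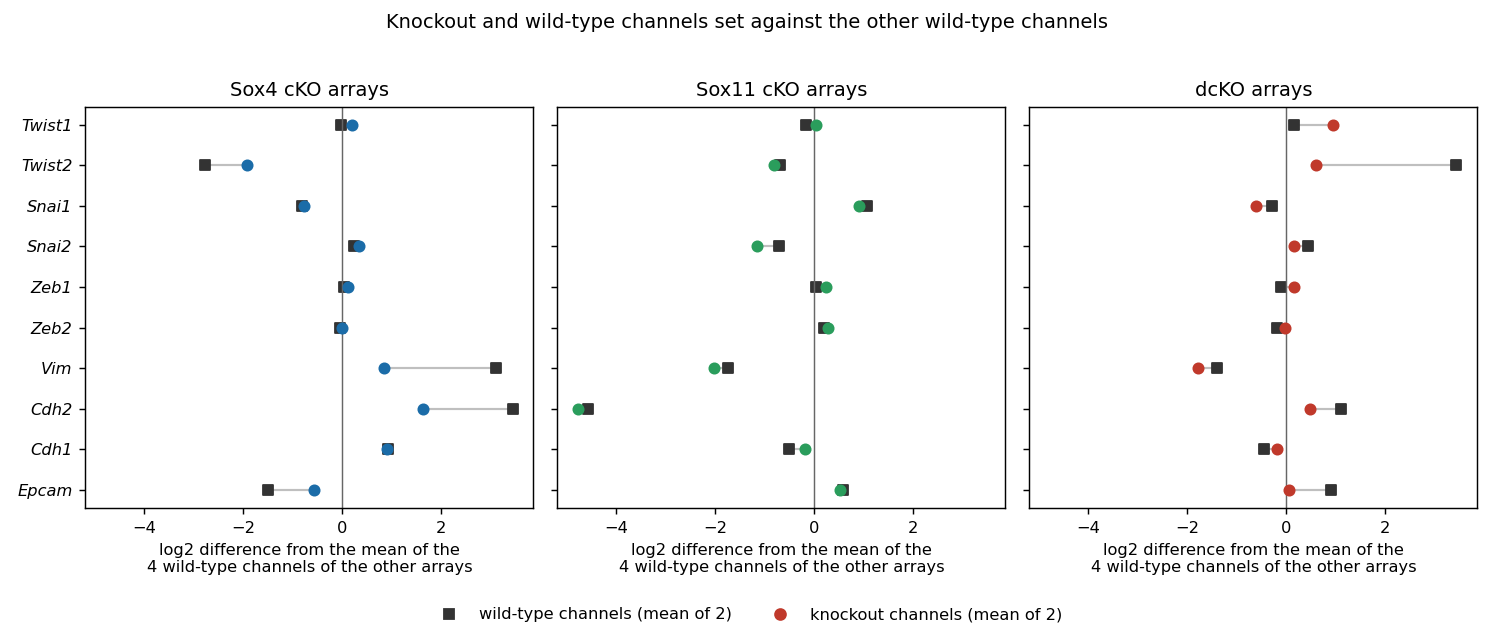
Log2 difference of the mean wild-type level (squares) and the mean knockout level (circles) of a genotype's 2 arrays from the mean of the 4 wild-type channels of the other arrays (x axis), for each member (y axis). On the dcKO arrays the wild-type square of *Twist2* lies at 3.45 and the knockout circle at 0.62; on the *Sox4* cKO arrays those of *Vim* lie at 3.13 and 0.86; on the *Sox11* cKO arrays both symbols of *Cdh2* lie below -4.

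With the 6 wild-type channels as 1 group, the log2 fold change of *Twist2* in dcKO was -1.98 and that of *Vim* in *Sox4* cKO was -1.49, given as values with no test. In the same fit *Twist1* in dcKO was 0.82 (SE 0.09, adjusted p = 0.00163), and its difference from *Sox11* cKO was 0.66 (SE 0.12, adjusted p = 0.0438), both under the fold threshold. *Twist1* was well above background in 0 of 6 wild-type and 1 of 6 knockout channels, so the small SEs are of signals near background. This fit also takes the wild-type channels as separate samples, although it is not known whether arrays shared wild-type RNA. *Snai2* in *Sox11* cKO was -0.63 (SE 0.19, adjusted p = 0.291). No member was past both thresholds in this fit in any of the 5 comparisons, and 1 in each, *Snai2* in *Sox11* cKO and *Twist1* otherwise, had an unadjusted p below 0.05, *Twist2* in the dcKO comparisons and *Vim* in the *Sox4* cKO comparisons aside. Of all probes in this fit, 0.0162% in *Sox4* cKO, 0.0216% in *Sox11* cKO, 0.479% in dcKO, 0.113% in dcKO minus *Sox4* cKO and 0.243% in dcKO minus *Sox11* cKO were past both thresholds, and 9.27, 10.2, 16.9, 14.2 and 13.1% had an unadjusted p below 0.05.

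Across the 12 channels, *Twist2* varied with *Epcam* (Pearson's r = 0.690) and *Vim* with *Cdh2* (r = 0.631), and *Cdh2* also with *Snai2* (r = 0.772). *Vim* was well above background in only 4 of the 12 channels, which limits every value given for it here. *Snai1* varied with *Epcam* (r = 0.806) and against *Snai2* (r = -0.741), with only 2 channels in which *Snai1* was above background. *Cdh1* and *Cdh2*, which are often described as switching, had r = 0.571, in the same direction. The 2 channels of an array share a hybridisation, so these values are descriptions over 12 channels. The 5 genes whose levels were most like those of *Twist2*, among 12002 genes above background in at least 6 channels, were *Hspe1* (r = 0.942), *Rras2* (r = 0.913), *Ttc9c* (r = 0.912), *Zfp143* (r = 0.911) and *Cacul1* (r = 0.909). In dcKO these 5 genes had log2 fold changes between -0.63 and -0.30, against -2.84 for *Twist2*. Those most like *Vim*, among 12003, were *Phf21a* (r = 0.907), *Kdm5c* (r = 0.899), *Pcm1* (r = 0.898), *Sec23a* (r = 0.896) and *Brd8* (r = 0.895). Of the members, only *Twist2*, *Snai2*, *Cdh1*, *Cdh2* and *Epcam* had enough channels above background to be candidates, and none was among them.

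Other genes of the transition were followed in 3 lists. The lists were chosen with earlier results of these data known, so their counts and calls describe these arrays and are not independent support. The partners and other factors held 16 genes, such as the E proteins *Tcf3*, *Tcf4* and *Tcf12*, which pair with Twist, and the Id proteins, which sequester E proteins. The epithelial keepers and junction genes numbered 34 and the mesenchymal products 27. In *Sox4* cKO and *Sox11* cKO no gene of these lists was called, while 8, 8 and 4 genes (junction, mesenchymal, partner) in *Sox4* cKO and 9, 7 and 7 in *Sox11* cKO had an unadjusted p below 0.05, against 7.4 and 6.84% of all probes. In dcKO 14, 14 and 7 did, against 13% of all probes. In dcKO 6 genes fell and none rose past both thresholds. They were 1 of 16 partners, 2 of 34 epithelial genes and 3 of 27 mesenchymal products, against 0.444% of all probes called lower. The lists and all probes are unlike in signal, which limits these comparisons. On the dcKO arrays 33 of 34 epithelial genes, 20 of 27 mesenchymal products and 11 of 16 partners were well above background in at least 1 channel. Of all probes, at most 45% were so in any 1 channel. The median log2 fold change in dcKO was -0.24 for the partners, -0.09 for the epithelial genes and -0.10 for the mesenchymal products. That of all probes was -0.003.

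Among the partners, *Id1* fell in dcKO, with levels of 7.33 and 9.92 against 10.15 and 10.93 in wild type (-1.92, SE 0.34, adjusted p = 0.0397). *Id3*, of the same family, passed only the p threshold at -1.13 (adjusted p = 0.0207), as did *Snai3*, the third Snail gene, at least 1.88-fold lower in dcKO, where neither channel was well above background (-0.91, adjusted p = 0.0415). Among the epithelial genes, the simple-epithelium keratin *Krt18* fell to levels of 8.73 and 8.99 from 13.29 and 12.49 (-4.03, SE 0.21, adjusted p = 8e-04), and the tight junction gene *Cldn7* to 9.49 and 7.01 from 11.34 and 10.75 (-2.80, SE 0.43, adjusted p = 0.0246). *Krt18* was 1.59 in *Sox4* cKO (adjusted p = 0.0559) and 1.08 in *Sox11* cKO (adjusted p = 0.193), the opposite sign. The splicing factor *Esrp2* at 1.17 and the tight junction gene *Marveld3* at 1.04 passed the p threshold only, with adjusted p of 0.0255 and 0.0343.

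Among the mesenchymal products, fibronectin (*Fn1*) fell in dcKO to levels of 5.54 and 7.71 from 9.09 and 12.11 (-3.97, SE 0.33, adjusted p = 0.00287), smooth muscle actin (*Acta2*) to 7.48 and 8.62 from 9.57 and 11.98 (-2.73, SE 0.15, adjusted p = 8e-04) and the proteoglycan versican (*Vcan*) to 7.27 and 7.79 from 9.50 and 9.41 (-1.92, SE 0.20, adjusted p = 0.00695). *Vcan*, like *Twist2*, is on the target list that the study drew in part from these arrays, so its call is not independent of that list. *Acta2* in *Sox4* cKO was -1.36 (adjusted p = 0.0326), under the fold threshold. Of the fibroblast markers, *Fbln1*, which encodes the matrix protein fibulin 1, was -1.42 in dcKO (adjusted p = 0.00967), and the summed signal of the 11 markers was 9.34 and 9.39 in dcKO cells against 10.43 and 10 in wild type. Its part in the lower mesenchymal products was not tested. Of the 15 alternatives tried, *Krt18* was called in 14, *Acta2* in 13, *Vcan* in 12, *Fn1* in 11, *Cldn7* in 9 and *Id1* in 6.

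**Figure D4:**
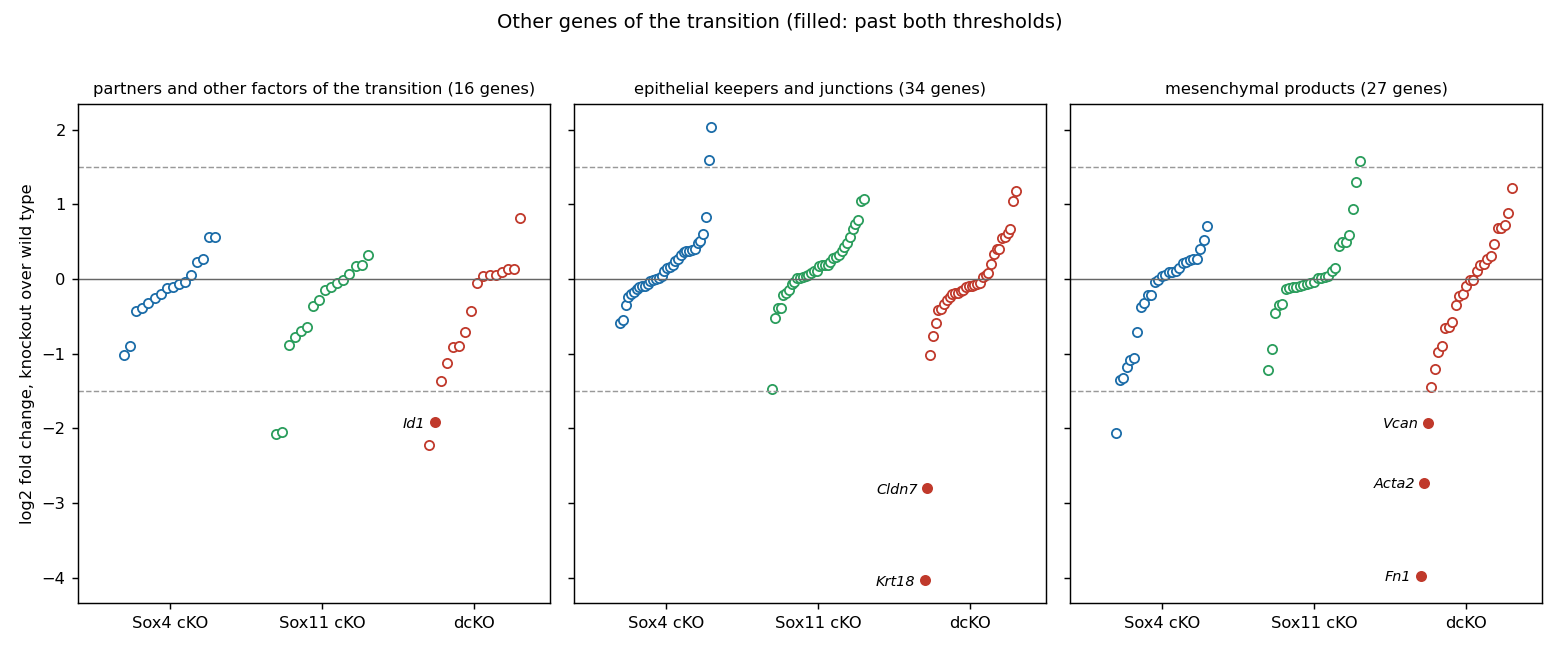
Log2 fold change of knockout over wild type (y axis) for the genes of the 3 lists (panels), with 1 point per gene and genotype, sorted within a genotype (x axis). Filled points passed both thresholds (dashed lines mark the fold threshold of 1.5 in either direction); the 6 filled points are all in dcKO and all below 0, and open points beyond the lines missed the adjusted p.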

How the data were processed

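Values of 6 two-colour Agilent mouse arrays were used, with 2 replicates of each of 3 genotypes and the dyes swapped between them. The authors scanned and extracted the arrays with Agilent Feature Extraction 11.0.1.1, and the deposited files hold spot and background intensity (median pixels) and processed intensity for each channel. The deposited value table holds log2 ratios made by the authors with limma after removal of a dye effect. Its columns run as knockout over wild type (r with the ratios computed here 0.891 to 0.952), and its offset is not stated in the file.

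Spot signals were corrected in limma 3.58.1 (R 4.3.3) by normexp with an offset of 16, loess-normalised within arrays, and averaged per probe after control spots and 194 to 288 outlier spots per array were left out. No spot was saturated. Genotype effects and a dye effect were fitted over all arrays by limma with moderated statistics and Benjamini-Hochberg adjustment over 55681 probes. The dye effect is the same column as a block on the replicate number. Same-numbered arrays of different genotypes deviated together (r = 0.316, 0.244 and 0.125), and the methods remove this effect, so it stayed in the fit. Channel levels were scaled between arrays by Aquantile. The brightest probe led for each gene. For a channel not well above background on either array, the fold was computed with its level raised to the lowest signal among probes well above background. The other channel was averaged as measured, so the fold is a bound only where that channel was well above background on both arrays. The fit was tested on simulated data. The number of arrays limits the precision.

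The members and the gene lists were chosen with earlier results of these data known. All 10 members and every probe are named, with the called genes of the lists (at most 5 with the largest change per list and comparison), and the 5 genes most like *Twist2* and *Vim*. Alternatives were the offset, the processed signals, the value table, median centring, the dye term, the filter on dim probes, averaging probes, leaving out each array and, added after seeing the data, a separate-channel fit with the wild-type channels as 1 group (limma, correlation within spots 0.628). Columns of the authors' own comparisons were not used. Symbols came from RefSeq accessions, which named 28331 of 29786 probes with such accessions.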

Additional observations from a re-analysis of the deposited data

Results flagged for a closer look

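*Snai1* had 1 wild-type channel far from the others. On *Sox11* cKO replicate 1 its level was 7.07, and the gap to the next wild-type level was 0.756 of the whole range of the 6 channels. The knockout channel of that array was also high, at 6.65. The other 5 wild-type levels were not well above background.

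The effect on *Epcam* differed between dcKO and *Sox4* cKO by -1.79 on the log2 scale (adjusted p = 0.0477 from limma), with the 4 arrays lower in dcKO and higher in *Sox4* cKO. *Epcam* was also higher on both *Sox4* cKO arrays and lower on both *Sox11* cKO arrays, a difference of 0.98 that was not tested, with *Sox11* cKO ratios of -0.06 and -0.03.

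*Twist2* was lower on both dcKO arrays and higher on both *Sox4* cKO arrays, a difference of -3.69 that was not tested because *Twist2* was chosen on its dcKO value.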

How the results depend on the processing

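Of the values given for single members, none reversed a call. The *Epcam* difference between dcKO and *Sox4* cKO lost its call under 9 alternatives, which beside those given with it were the processed signals (-1.90) and the filter on dim probes (-1.79, adjusted p = 0.0764). The counts of members in *Sox4* cKO and dcKO, 1 each, hold the gene chosen on that value and are no test, and no count below that holds *Twist2* in dcKO or *Vim* in *Sox4* cKO is a result. The count in *Sox4* cKO was 0 with an offset of 50, the processed signals, the dye effect subtracted beforehand, the filter or the wild-type channels as 1 group. That in dcKO was 0 with an offset of 50, the processed signals or the wild-type channels as 1 group, and 2 on adjusted p alone, with *Twist1*. Between dcKO and *Sox4* cKO the count of 1 became 0 with an offset of 50, the processed signals, the filter and the wild-type channels as 1 group, and 3 with the value table and with median centring. For dcKO against *Sox11* cKO it went from 0 to 1 with median centring. As values with no test, the log2 ratio of *Vim* in *Sox4* cKO was -1.73 with an offset of 50 and -3.93 with the processed signals, and that of *Twist2* in dcKO -2.24 and -4.18.

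Without the replicate block, which here is the dye term, 0 members were called in *Sox4* cKO, *Sox11* cKO, dcKO, dcKO minus *Sox4* cKO and dcKO minus *Sox11* cKO, and 4 other genes of the lists were called in dcKO.

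The 6 genes of the lists called in dcKO became 2 with an offset of 50, 0 with the processed signals, 11 with median centring and 10 on adjusted p alone. In *Sox4* cKO the count of 0 became 1 with the value table and 1 on adjusted p alone, and in *Sox11* cKO 1 with the value table. The processed signals gave no call on any probe in any genotype. Median centring raised the share of calls that were lower in dcKO from 58.7% of 421 to 83.2% of 720, as the median of bright probes moved from -0.015 to -0.460, and the cause was not tested.

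Leaving out 1 array, which leaves its genotype with a lone array assumed to vary like the others, gave between 0 and 1 members called in *Sox4* cKO and in dcKO, and 0 in *Sox11* cKO. The range was 0 to 3 for dcKO minus *Sox4* cKO (3 without either *Sox11* cKO array, 0 without *Sox4* cKO replicate 2 or either dcKO array) and 0 to 1 for dcKO minus *Sox11* cKO (1 without either *Sox4* cKO array). The counts for the lists also moved in all 3 genotypes when an array was left out. The 2 *Sox11* cKO arrays could differ in sign, as *Fstl1* was 3.79 without replicate 1 and -1.91 without replicate 2. The share of all probes called was not computed in any fit without an array, so no count from these fits is a result. The members whose wild-type levels stood apart numbered 4 to 5 on the *Sox4* cKO arrays, 4 to 7 on the *Sox11* cKO arrays (7 without *Sox11* cKO replicate 2) and 3 to 4 on the dcKO arrays. With fewer levels this rule is easier to meet, and no share of all probes was computed beside these counts. With no scaling between arrays they numbered 2 for *Sox11* cKO and 1 for dcKO, with the processed signals 2 and 1, and with an offset of 50 they numbered 1 for dcKO. An alternative on mean in place of median spot signals was not run, since the files used here give medians. Signals near background limit *Twist1*, *Snai1*, *Zeb1*, *Zeb2* and most values of *Vim* and *Twist2*.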
